A study of Homo sapiens with 30 samples.

Results

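GDF15, MDM2, TP53INP1, SESN1, SESN2, BTG2, FAS, ZMAT3, TP53I3 and FDXR are genes that the tumour suppressor p53 is known to switch on, and their RNA was followed through 2 courses of senescence in WI-38 cells. Each gene was represented by the array feature (transcript cluster) whose only gene symbol in the platform's probe table was that gene. Of the 10 genes, 8 had such a feature among the 52329 features measured. BTG2 and FDXR had none and are not described by level. This choice of a feature used gene names only and no level. The genes themselves were chosen with earlier results of these data known.

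WI-38 is an established line of fibroblasts from human fetal lung, grown here in 3% oxygen and 5% carbon dioxide. RNA was read on 30 Affymetrix HTA 2.0 arrays in 15 labelled groups of 2 arrays each. One course used WI-38 cells with a RAF oncogene under doxycycline control, at T0 and at 12 hours, 24 hours, 48 hours, 72 hours and 96 hours of 100 ng/ml doxycycline. The other used WI-38 cells driven to proliferative exhaustion under 21% oxygen, at T0 and at 144 hours, 264 hours, 432 hours, 624 hours, 792 hours, 1008 hours, 1368 hours and 2112 hours. The later replicative groups share the 21% oxygen and the later RAF groups share the doxycycline. Time and oxygen therefore cannot be told apart against replicative T0, nor can the oncogene, doxycycline and time against RAF T0. The RAF replicates are called biological by the series' design text. For the replicative arrays nothing says so, and their p-values may reflect technical spread only.

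The labels and the values were at odds. On component 1 of a principal component analysis (64.2% of the variance), no group was split. The 12 arrays labelled replicative T0, 624 hours, 792 hours, 1008 hours, 1368 hours and 2112 hours scored at least 25.24, and the other 18, the 12 RAF-labelled arrays and the arrays labelled replicative 144 hours, 264 hours and 432 hours, scored -37.23 or less. The proliferation marker MKI67, which falls when cells arrest, averaged 9.30 in the arrays labelled RAF 12 hours and 5.15 in those labelled RAF T0, so that it was lowest at the start of the oncogene course. In the replicative course it averaged 9.30 at T0, 5.65 at 792 hours and 8.80 at 2112 hours, the last label of exhaustion. Groups are therefore called by their labels throughout, and every direction is one between labels. Differences between replicative 144 hours, 264 hours or 432 hours and any other replicative label cross component 1. Over the 30 arrays the 10 measured fibroblast markers averaged 6.56 (FAP) to 11.84 (VIM) on the log2 scale. The 10 epithelial markers averaged 3.84 (EPCAM) to 8.7 (KRT18), the 8 endothelial ones 4.04 (KDR) to 8.07 (TEK) and the 5 leukocyte ones 5.02 (CD3E) to 9.87 (CD68). Whether a dim feature exceeds background could not be judged. In such bulk RNA, fewer cells of a type and less RNA per cell cannot be told apart.

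p53 is a transcription factor that is held low by MDM2, a ubiquitin ligase that marks it for destruction, and that is released by DNA damage, oncogene signalling and other stress. It binds response elements near its targets, which stop the cell cycle, repair damage, restrain growth or drive cell death, and it also raises MDM2, which closes a feedback loop. In senescent fibroblasts p53 and its target CDKN1A, an inhibitor of cyclin-dependent kinases, help to keep the arrest, and GDF15 is among the proteins such cells secrete.

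The promoter sequences below come from the RefSeq windows (build GRCh38.p14) that run from 250 bases before to 50 bases after an annotated gene start. They show where the letters closest to the p53 consensus lie. GDF15 is shown for its wide course, MDM2 and SESN1 for courses that were much alike, and FAS for its close match. The consensus has 20 positions and reads the same on both strands, and the best match in each window was kept. Over all 35116 windows the median best match was 15 of 20 positions. In each line the capitals mark the best match. The GDF15 window lies at chr19:18385908-18386207 on the plus strand. Its best match, 17 of 20 positions, begins at base 29 of the transcript, and 5.2% of windows hold a match of at least 17.
GDF15: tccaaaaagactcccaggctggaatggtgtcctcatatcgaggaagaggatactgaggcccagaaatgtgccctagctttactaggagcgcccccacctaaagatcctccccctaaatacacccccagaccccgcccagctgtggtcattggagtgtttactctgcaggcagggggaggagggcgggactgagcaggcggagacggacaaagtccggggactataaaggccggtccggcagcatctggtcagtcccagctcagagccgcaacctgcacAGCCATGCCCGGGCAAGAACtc
The MDM2 window lies at chr12:68808767-68809066 on the plus strand, at an internal start of the gene. Its best match, 18 of 20 positions, begins 94 bases before that start, and 0.649% of windows reach 18. The windows at the gene's upstream starts reached 15.
MDM2: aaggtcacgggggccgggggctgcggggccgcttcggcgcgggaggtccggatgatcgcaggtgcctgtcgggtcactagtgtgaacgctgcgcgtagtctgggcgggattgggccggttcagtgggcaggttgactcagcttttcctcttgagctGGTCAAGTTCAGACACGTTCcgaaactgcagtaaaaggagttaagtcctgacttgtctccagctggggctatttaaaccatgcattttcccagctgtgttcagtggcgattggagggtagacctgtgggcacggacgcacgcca
FAS also reached 18, at chr10:88991309-88991328 on the plus strand. SESN1 reached 17, at chr6:109009018-109009037 on the minus strand. For these the match alone is given, and the other windows of both genes reached 15.
FAS: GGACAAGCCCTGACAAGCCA
SESN1: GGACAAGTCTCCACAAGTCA
The windows of FDXR, BTG2 and ZMAT3 held at best 17, 16 and 16 matching positions, and those of SESN2 and TP53I3 held 15, the median of all windows. No window of TP53INP1 was used. A match of letters is a description of the window and no measurement of binding. Sites with a gap inside the consensus, and sites outside these windows, were not sought.

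GDF15 (feature TC19000356.hg.1), a secreted stress hormone of the TGF-beta superfamily, had the widest course of the 8 genes. Its group means spanned 3.95 log2 units, and 0.25% of all features spanned more. In the replicative course the 2 arrays of each label read 9.8 and 9.9 at T0, 9.4 and 9.5 at 144 hours, 8.6 on both at 264 hours, 8.9 on both at 432 hours, 9.5 on both at 624 hours, 12.5 on both at 792 hours, 11.9 on both at 1008 hours, 11.1 and 11.2 at 1368 hours, and 10.1 and 10.2 at 2112 hours. GDF15 was thus low at 264 hours and 432 hours, high from 792 hours on, and each label from 792 hours to 2112 hours lay apart from its neighbours. The labels 144 hours, 264 hours and 432 hours lie across component 1 from the other replicative labels. In the RAF course the arrays read 8.9 and 9.0 at T0, 8.6 and 8.5 at 12 hours, 8.9 and 9.0 at 24 hours, 9.1 and 9.3 at 48 hours, 9.4 on both at 72 hours, and 9.2 and 9.1 at 96 hours. All 12 RAF-labelled arrays lay below both replicative T0 arrays.

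At 792 hours GDF15 was higher than at replicative T0 by 2.65 log2 units (SE 0.06, 6.28-fold, limma adjusted p 1.65e-11). It was higher by 2.05 at 1008 hours, by 1.30 at 1368 hours and by 0.30 at 2112 hours (adjusted p 0.0136). The last call was lost without replicative T0 replicate 1 and without 2112 h replicate 2. Before 792 hours it was lower than at T0, by 0.40 at 144 hours, 1.25 at 264 hours, 0.95 at 432 hours and 0.35 at 624 hours. Between neighbouring times the widest step was the rise of 3.00 at 792 hours against 624 hours (SE 0.06, 8-fold, adjusted p 3.64e-12). Falls of 0.60, 0.75 and 1.0 followed at 1008 hours, 1368 hours and 2112 hours, each against the time before. Against RAF T0, GDF15 was lower by 0.40 at 12 hours (SE 0.08, adjusted p 0.00893) and higher by 0.45 at 72 hours (adjusted p 0.0126), and its difference of 0.20 at 96 hours did not pass (adjusted p 0.145).

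**Figure D1:**
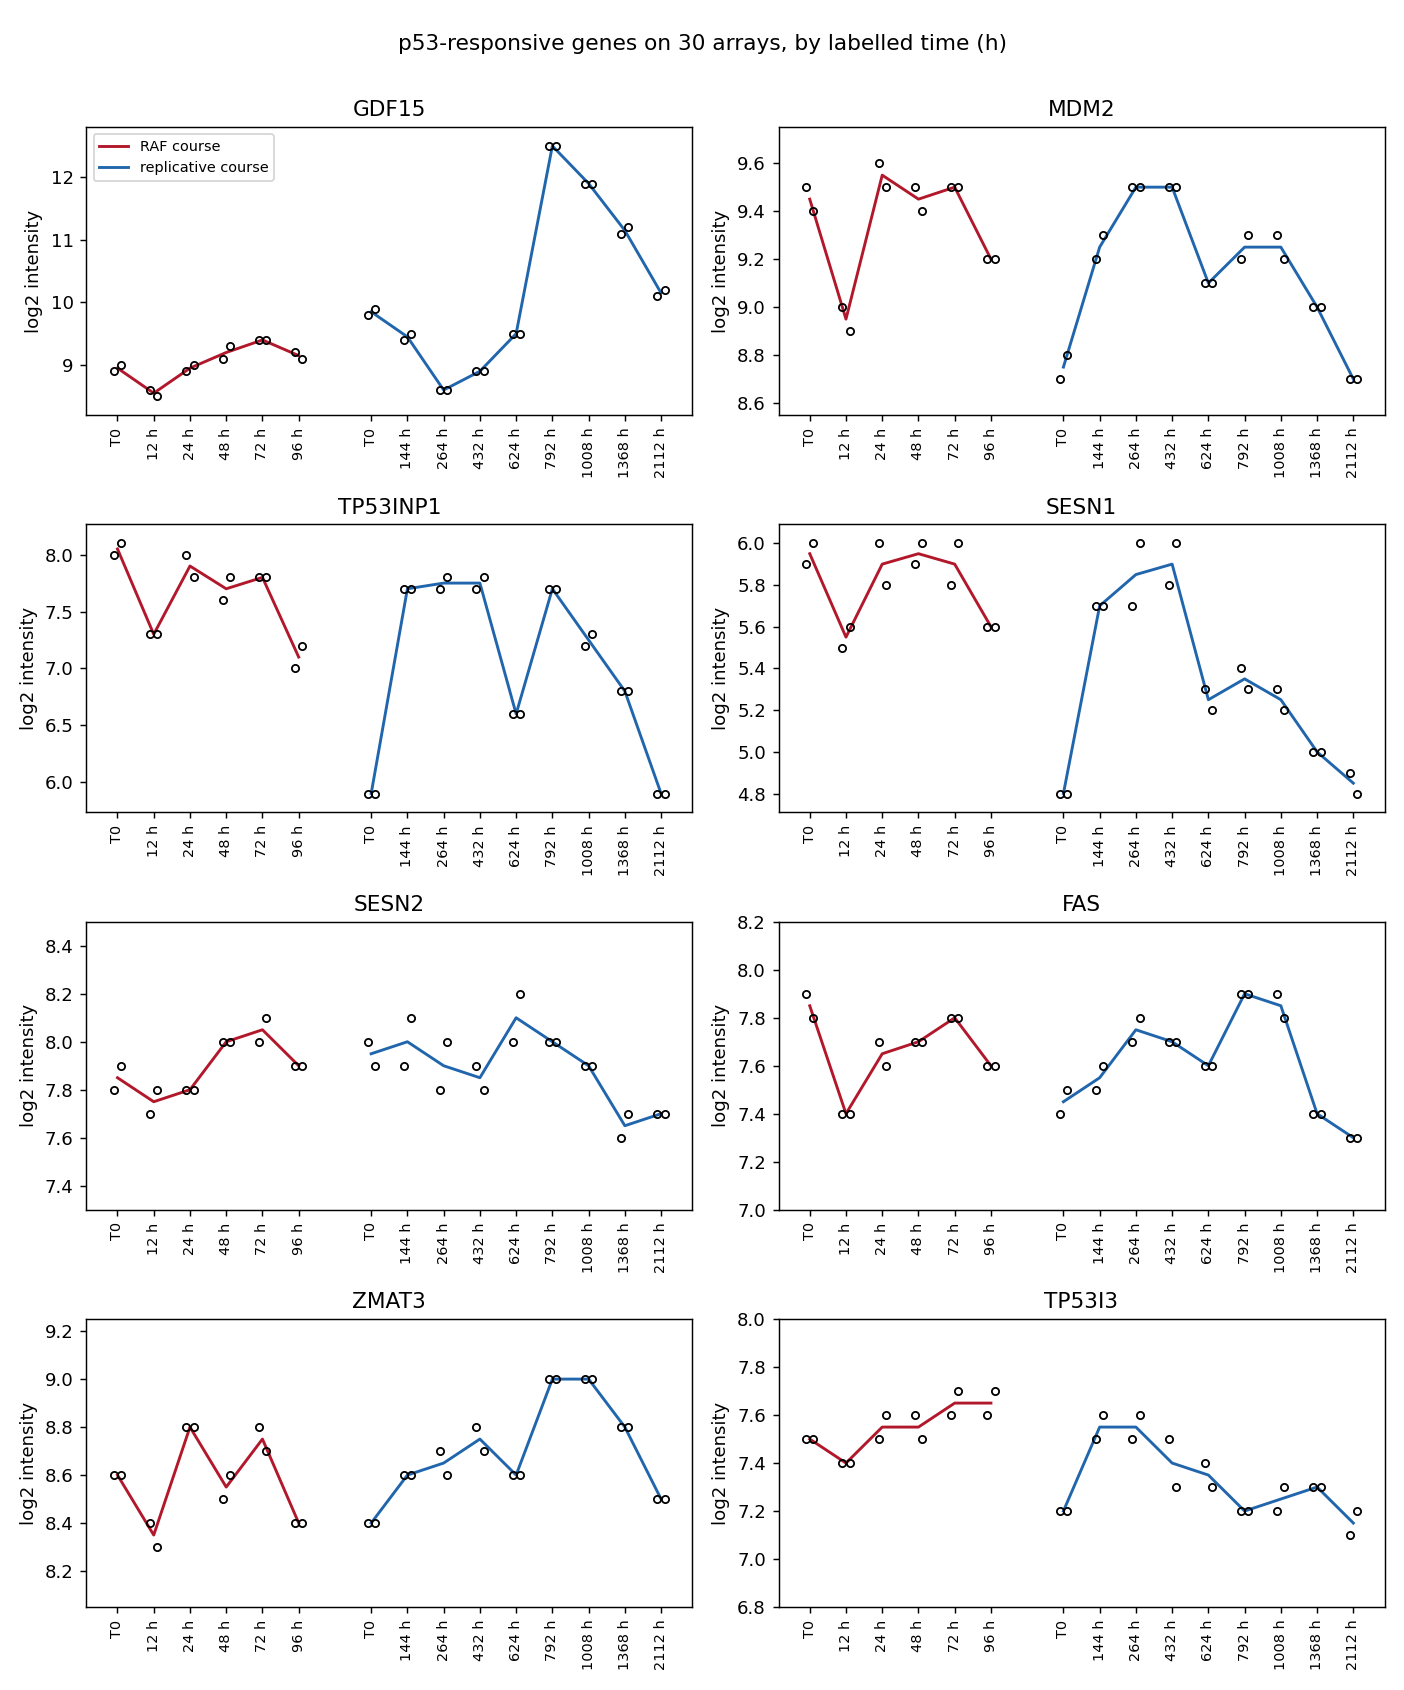
Level of the 8 measured genes on each of the 30 arrays (vertical axis, log2 intensity, a separate range for each gene) by labelled time in hours (horizontal axis, not to scale). Points are arrays and lines join the means of 2 arrays. GDF15 stands at 12.5 on both arrays labelled replicative 792 hours, while TP53INP1 stands at 5.9 on all 4 arrays labelled replicative 2112 hours and T0.

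TP53INP1 (feature TC08001440.hg.1), a stress-induced protein that promotes p53 activity and autophagy, had the second widest course, with group means 2.15 log2 units apart and 2.44% of features wider. Its replicative arrays read 5.9 on both at T0, 7.7 on both at 144 hours, 7.7 and 7.8 at 264 hours and at 432 hours, 6.6 on both at 624 hours, 7.7 on both at 792 hours, 7.2 and 7.3 at 1008 hours, 6.8 on both at 1368 hours and 5.9 on both at 2112 hours. It was thus at its lowest at the first and the last label, with a lower level at 624 hours between 2 high stretches. The first stretch, 144 hours to 432 hours, lies across component 1 from the other replicative labels. The RAF arrays read 8.0 and 8.1 at T0, 7.3 on both at 12 hours, 8.0 and 7.8 at 24 hours, 7.6 and 7.8 at 48 hours, 7.8 on both at 72 hours, and 7.0 and 7.2 at 96 hours. Its highest level among the 15 labels was at RAF T0.

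Against replicative T0, TP53INP1 was higher by 1.80 log2 units at 144 hours and 792 hours (SE 0.05, 3.48-fold, limma adjusted p 4.45e-10 and 1.55e-10) and by 1.85 at 264 hours and 432 hours. At 624 hours the difference was 0.70, at 1008 hours 1.35, at 1368 hours 0.90, and at 2112 hours 0.00 (adjusted p 1). At 624 hours, across component 1 from 432 hours, it was lower by 1.15 than at 432 hours. At 792 hours it was higher than at 624 hours by 1.10 (SE 0.05 each). Against RAF T0 it was lower by 0.75 at 12 hours (SE 0.10, adjusted p 0.00117) and by 0.95 at 96 hours (SE 0.10, 0.518-fold, adjusted p 0.000552). The differences at 24 hours, 48 hours and 72 hours, of -0.15, -0.35 and -0.25, did not pass.

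MDM2 (feature TC12000606.hg.1), the ligase that limits p53, moved within 0.85 log2 units, a span that 26.2% of features exceeded. Its replicative arrays read 8.7 and 8.8 at T0, 9.2 and 9.3 at 144 hours, 9.5 on both at 264 hours and 432 hours, 9.1 on both at 624 hours, 9.2 and 9.3 at 792 hours, 9.3 and 9.2 at 1008 hours, 9.0 on both at 1368 hours, and 8.7 on both at 2112 hours. It was higher than at T0 at each label from 144 hours to 1368 hours, most of all by 0.75 at 264 hours and 432 hours (SE 0.06, limma adjusted p 4.57e-07 and 4.28e-07), and at 2112 hours the difference was -0.05 (adjusted p 0.775). The RAF arrays read 9.5 and 9.4 at T0, 9.0 and 8.9 at 12 hours, 9.6 and 9.5 at 24 hours, 9.5 and 9.4 at 48 hours, 9.5 on both at 72 hours, and 9.2 on both at 96 hours. Only the arrays at 12 hours and 96 hours lay below those of RAF T0, by 0.50 (SE 0.06, adjusted p 0.000802) and 0.25 (adjusted p 0.0282).

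SESN1 and SESN2 encode sestrins, stress proteins that restrain the growth kinase complex mTORC1, and their courses differed in size. SESN1 (feature TC06001997.hg.1) had group means that spanned 1.15 log2 units, with 13.8% of features wider. Its replicative arrays read 4.8 on both at T0, 5.7 on both at 144 hours, 5.7 and 6.0 at 264 hours, 5.8 and 6.0 at 432 hours, 5.3 and 5.2 at 624 hours, 5.4 and 5.3 at 792 hours, 5.3 and 5.2 at 1008 hours, 5.0 on both at 1368 hours, and 4.9 and 4.8 at 2112 hours. It stood above T0 by 0.90, 1.05 and 1.10 at 144 hours, 264 hours and 432 hours (SE 0.09 each, limma adjusted p at most 7.61e-06), and by 0.45, 0.55 and 0.45 at 624 hours, 792 hours and 1008 hours. At 1368 hours and 2112 hours the differences of 0.20 and 0.05 did not pass. In the RAF course SESN1 was lower at 12 hours by 0.40 (SE 0.09, adjusted p 0.016), with 5.5 and 5.6 against 5.9 and 6.0 at T0. At 96 hours both arrays read 5.6, a fall of 0.35 (adjusted p 0.0368). This call at 96 hours was lost in 8 of 17 alternatives, all of them omissions of a single array.

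SESN2 (feature TC01000377.hg.1) stayed between 7.6 and 8.2 on all 30 arrays, and 63.2% of features had a wider span of group means than its 0.45. It passed against T0 once in 13 comparisons, lower by 0.30 at replicative 1368 hours (SE 0.09, limma adjusted p 0.0347), with 7.6 and 7.7 there and 8.0 and 7.9 at T0. The call was lost without any 1 of these 4 arrays (adjusted p 0.0644 to 0.195). No 2 neighbouring labels in the order of its levels were free of overlap.

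FAS (feature TC10002942.hg.1), the death receptor that starts apoptosis when its ligand binds, ranged from 7.3 on both arrays labelled replicative 2112 hours to 7.9 on both labelled 792 hours. Its group means spanned 0.60, with 45.7% of features wider. Against replicative T0 it was higher by 0.45 at 792 hours (SE 0.06, limma adjusted p 5.14e-05), 0.40 at 1008 hours, 0.30 at 264 hours and 0.25 at 432 hours. Against RAF T0 it was lower by 0.45 at 12 hours (SE 0.05, adjusted p 0.000465) and 0.25 at 96 hours (adjusted p 0.011). ZMAT3 (feature TC03002034.hg.1), an RNA-binding zinc finger protein, read 9.0 on all 4 arrays labelled 792 hours and 1008 hours, and 8.4 on both labelled replicative T0. Its group means spanned 0.65, with 40.9% of features wider. It passed upwards at every replicative label but 2112 hours (0.10, adjusted p 0.364), by 0.20 to 0.60, and downwards at RAF 12 hours by 0.25 and RAF 96 hours by 0.20. The call at 624 hours was lost without either replicative T0 array or either 624 h array. TP53I3 (feature TC02001645.hg.1), a quinone oxidoreductase tied to oxidative stress in cell death, lay between 7.1 and 7.7. Its group means spanned 0.50, with 57.1% of features wider. It was higher than at replicative T0 by 0.35 at 144 hours and 264 hours (SE 0.07, adjusted p 0.00135 and 0.00139) and by 0.20 at 432 hours, and passed nowhere against RAF T0. The call at 432 hours was lost without either replicative T0 array or 432 h replicate 1.

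In the RAF course most of the 8 genes passed as lower than at T0 at the 2 labels where MKI67 was highest. At 12 hours 6 of the 8 were lower and 0 higher (limma, adjusted p under 0.05), where 9.73% of all features were lower and 9.7% higher and the median difference was -0.40 for the 8 genes and 0 for all features. Those 6 were GDF15, MDM2, TP53INP1, SESN1, FAS and ZMAT3, and the same 6 were higher again at 24 hours than at 12 hours, by 0.25 to 0.60, where 6.02% of all features were higher. At 96 hours 5 of the 8 were lower, MDM2, TP53INP1, SESN1, FAS and ZMAT3, against a background of 7.71% lower and 7.97% higher. The other 3, GDF15 (0.20), TP53I3 (0.15) and SESN2 (0.05), did not pass there, and 2 of them, GDF15 and TP53I3, were higher at an unadjusted p under 0.05. At 72 hours GDF15 alone was higher, with 4.34% of features higher and 4.47% lower. At 24 hours and 48 hours 0 of 8 passed, against 2.64% of features higher and 3.26% lower at 24 hours, and 3.96% higher and 4.35% lower at 48 hours. At an unadjusted p under 0.05, 1 was higher and 1 lower at 24 hours, and 2 were higher and 2 lower at 48 hours. With limma on a model of all 30 arrays, 2 passed at each of these labels.

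The RAF counts leaned on single arrays. Without RAF T0 replicate 2 the 12 h count was 3, losing GDF15, SESN1 and ZMAT3. The 96 h count was 1 without RAF T0 replicate 1, 3 without T0 replicate 2 of that course, and 2 without either 96 h array, and TP53INP1 passed in each case. ZMAT3 at 96 hours missed the threshold after quantile normalization (limma adjusted p 0.0501). GDF15 at 72 hours no longer passed without RAF T0 replicate 1 or either 72 h array, and 1 gene, GDF15, passed at 48 hours without 48 h replicate 1. At 24 hours against 12 hours SESN1 (limma adjusted p 0.0416) no longer passed in 10 of 17 alternatives, FAS in 3 and GDF15 in 2. For SESN1 these were the omission of either T0, 12 hours, 48 hours or 96 h array or of 24 h replicate 1, and the replicate block (0.0504). For FAS they were the omission of either 12 h array or of 24 h replicate 1, and for GDF15 that of 12 h replicate 2 or 24 h replicate 2. All comparisons of a course with T0 share the same 2 T0 arrays.

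In the replicative course the genes were mostly higher than at T0, and at 2112 hours nearly level with it. At 792 hours and at 1008 hours 6 of the 8 were higher and 0 lower, where 13.1% and 11.7% of all features were higher, and 11.7% and 11.3% lower; the median differences of the 8 were 0.525 and 0.475. The fibroblast markers moved at these labels too, with 2 of 10 higher and 7 lower at 792 hours, and 2 higher and 4 lower at 1008 hours. Their mean level was 9.015 at 792 hours and 9.245 at 1008 hours, against 9.545 at T0, and the part of this in the result was not tested. At 144 hours 5 were higher and GDF15 was lower, and at 264 hours and 432 hours 6 were higher and GDF15 was lower. These 3 labels lie across component 1 from T0, and of all features 30.1%, 30.4% and 31.2% were higher and 28.6%, 26.5% and 26.8% lower there. At 624 hours, again on the side of T0, 4 were higher and 1 lower, against 7.17% and 6.67% of features. At 1368 hours 4 were higher and SESN2 was lower, against 8.74% and 8.41%. At 2112 hours only GDF15 passed, upwards, against 1.34% of features higher and 1.46% lower. MKI67 was high at 2112 hours too, at 8.80 against 9.30 at T0 and 5.65 at 792 hours. The count at 624 hours was 3 in all without 624 h replicate 1, which lost SESN1 and ZMAT3, and the count at 1368 hours was 3 without replicative T0 replicate 1, which lost MDM2 and SESN2.

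Set against 144 hours, which shares the 21% oxygen, the genes at 2112 hours were lower in 6 of 8 cases (30.9% of all features were lower). TP53INP1 was lower by 1.80 (SE 0.05), SESN1 by 0.85, MDM2 by 0.55, TP53I3 by 0.40, SESN2 by 0.30 and FAS by 0.25. GDF15 went the other way, higher by 0.70 (SE 0.06, limma adjusted p 7.98e-07, with 29.8% of features higher), and ZMAT3 did not pass. These labels also lie on opposite sides of component 1. Between consecutive times, 31 of 64 gene steps passed in the replicative course, where 20.7% of all feature steps did, and 15 of 40 in the RAF course, where 7.36% did.

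**Figure D2:**
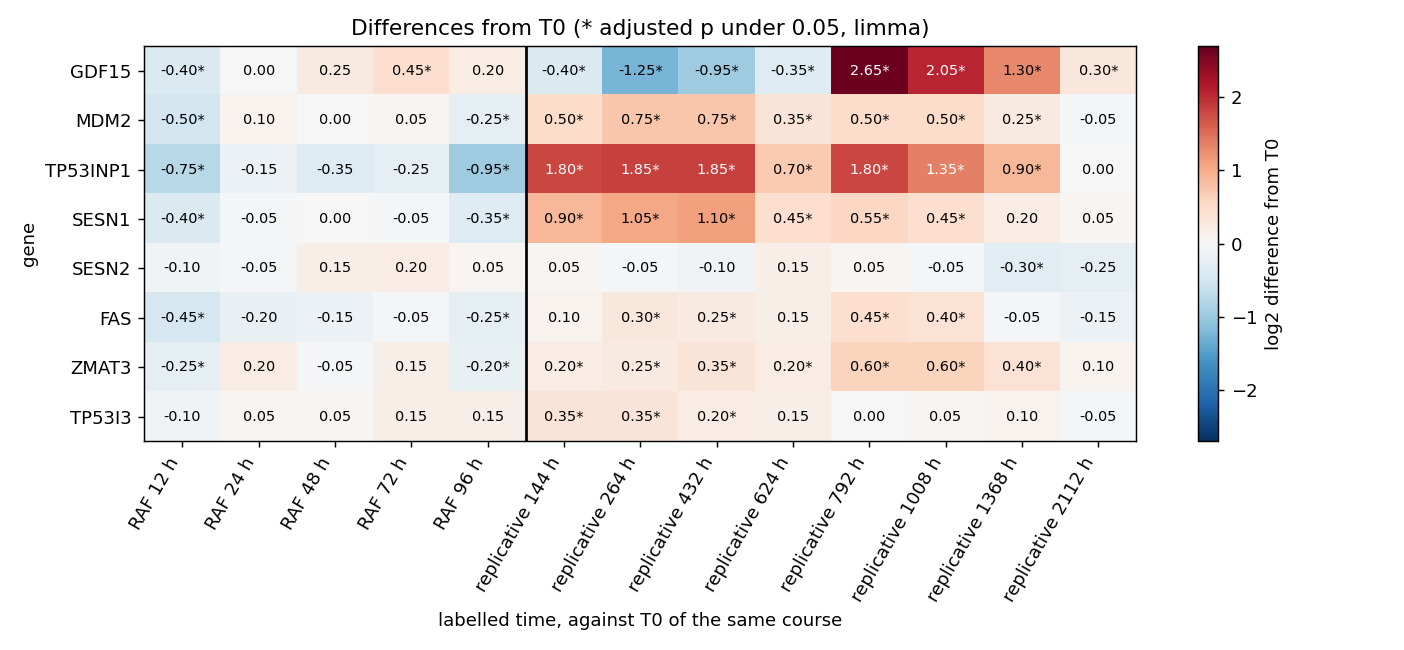
Log2 difference of each gene (rows) at each labelled time (columns) from T0 of its own course, with red for higher and blue for lower than T0; stars mark a limma adjusted p under 0.05. The RAF columns hold 12 stars, 11 of them for lower values at 12 hours and 96 hours, and GDF15 has the darkest cell, 2.65 at replicative 792 hours.

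GDF15 went the opposite way from 5 of the genes at 144 hours, 264 hours and 432 hours. MDM2, TP53INP1, SESN1, ZMAT3 and TP53I3 were higher than at replicative T0 at each of these labels, where GDF15 was lower. Of all features 30.1%, 30.4% and 31.2% were higher at these labels, and 28.6%, 26.5% and 26.8% lower. These labels lie across component 1 from T0, on the side of RAF T0. At RAF T0 too, GDF15 was lower and these 5 genes were higher than at replicative T0. At 792 hours and 1008 hours, on the side of T0, GDF15, MDM2, TP53INP1, SESN1 and ZMAT3 were all higher than at T0. TP53I3 did not pass there, where 13.1% and 11.7% of all features were higher. Over the 18 replicative arrays the Pearson r of GDF15 was -0.201 with MDM2, -0.017 with TP53INP1, -0.44 with SESN1 and -0.605 with TP53I3. It was 0.697 with ZMAT3, 0.295 with FAS and -0.092 with SESN2. Over the 12 RAF arrays it was 0.616, 0.209, 0.471, 0.768, 0.49, 0.644 and 0.862, in the same order of genes. MDM2 with TP53INP1 gave 0.934 over the replicative and 0.767 over the RAF arrays, MDM2 with SESN1 0.919 and 0.832, and TP53INP1 with SESN1 0.883 and 0.872. These values describe the arrays and carry no test, since the 2 arrays of a group share a label and the groups fall into 2 clusters. The replicative r pool labels of both clusters.

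For each gene the features most alike over the 30 arrays were sought among 18479 other named genes, 37 of them in a list of other p53 targets. GDF15 was most like TNFRSF10A (r 0.978), a TRAIL death receptor that p53 also induces, then LIMK1 (0.975) and TAMALIN (0.974). Within the RAF arrays these r were 0.618, 0.043 and 0.629, and within the replicative arrays 0.983, 0.987 and 0.973. MDM2 was most like TIGAR (0.976), a p53-induced phosphatase of sugar metabolism, CES2 (0.94) and SPATA18 (0.938), a p53 target of mitochondrial quality control. TIGAR gave 0.967 within the RAF and 0.978 within the replicative arrays, and SPATA18 0.92 and 0.94. TP53INP1 was most like PARP14 (0.974), PBXIP1 (0.965) and ZMYM2 (0.96), and SESN1 most like GATAD1 (0.966), SGSM2 (0.965) and CSGALNACT1 (0.962). For FAS the nearest were CAPN7 (0.866), PGPEP1 (0.85) and STX16 (0.842), for ZMAT3 ARHGAP5 (0.897), RSPH3 (0.882) and WIPI1 (0.878), and for TP53I3 NAGPA (0.92), LINC02135 (0.908) and NDUFB2 (0.902). SESN2 had the loosest, with NUPR1 at 0.798, GAB2 at 0.666 and ERGIC1 at 0.627. Of the 24 genes so named, 3 were in the list of other p53 targets.

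The genes were set beside MKI67, since its level differed widely between the labels. MKI67 averaged 9.30 at replicative T0, 7.80 at 144 hours, 6.10 at 264 hours, 5.90 at 432 hours, 9.10 at 624 hours, 5.65 at 792 hours, 5.60 at 1008 hours, 6.70 at 1368 hours and 8.80 at 2112 hours. In the RAF course it averaged 5.15, 9.30, 6.35, 6.75, 6.85 and 8.55 at T0, 12 hours, 24 hours, 48 hours, 72 hours and 96 hours. TP53INP1, MDM2 and FAS were low where MKI67 was high, with r of -0.898, -0.849 and -0.861 over the 12 RAF arrays and -0.796, -0.75 and -0.737 over the 18 replicative arrays. For ZMAT3 these r were -0.702 and -0.851, for SESN1 -0.85 and -0.554, and for TP53I3 -0.166 and -0.2. For GDF15 they were -0.355 and -0.356, and for SESN2 -0.25 and 0.124. The replicative r pool labels on both sides of component 1. Among the labels on the side of replicative T0, GDF15 averaged 12.5 and 11.9 at 792 hours and 1008 hours, where MKI67 was lowest. There GDF15 averaged 9.85, 9.5, 11.15 and 10.15 at T0, 624 hours, 1368 hours and 2112 hours, where MKI67 was higher. Across component 1, GDF15 averaged 9.45, 8.6 and 8.9 at 144 hours, 264 hours and 432 hours. Of 23 measured genes of G2 and mitosis, 23 were higher at RAF 12 hours and at RAF 96 hours than at T0, and 23 were lower at replicative 792 hours than at T0. Of all features 9.7% and 7.97% were higher at those RAF labels, and 11.7% were lower at 792 hours. The part of proliferation in the levels of the p53-responsive genes was not tested.

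**Figure D3:**
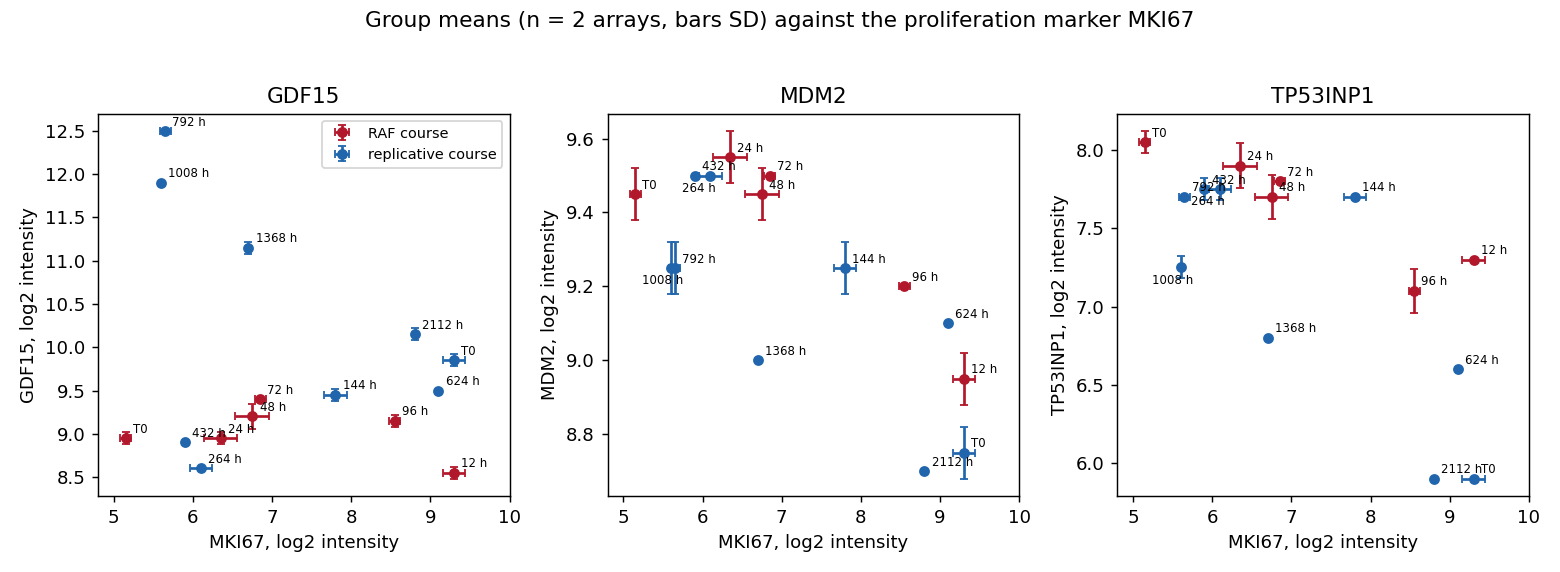
Group means of GDF15, MDM2 and TP53INP1 (vertical axes, log2 intensity) against MKI67 (horizontal axes, log2 intensity); points are labelled groups of 2 arrays, bars are SD, red for RAF and blue for replicative. MDM2 and TP53INP1 are lowest at the replicative 2112 hours and T0 points, where MKI67 averaged 8.80 and 9.30, while GDF15 is highest at 792 hours and 1008 hours, where MKI67 averaged 5.65 and 5.60.

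Other known p53 targets, 37 measured of 40 listed, were counted at the same labels. At RAF 12 hours 2 were higher and 18 lower than at T0, and at RAF 96 hours 4 were higher and 14 lower. Of all features 9.7% were higher and 9.73% lower at RAF 12 hours, and 7.97% and 7.71% at RAF 96 hours. At RAF 24 hours 1 target was higher and 6 lower, against 2.64% and 3.26% of all features. At RAF 48 hours and 72 hours 3 were higher and 6 lower each time. Of all features 3.96% were higher and 4.35% lower at 48 hours, and 4.34% and 4.47% at 72 hours. At replicative 792 hours 25 were higher and 2 lower, with a median of 0.50, at 1008 hours 24 and 4, and at 2112 hours 3 and 3. The shares of all features higher and lower were 13.1% and 11.7% at 792 hours. They were 11.7% and 11.3% at 1008 hours, and 1.34% and 1.46% at 2112 hours. Directions were more mixed at 144 hours, 264 hours and 432 hours, with 18, 17 and 21 targets higher and 10, 13 and 11 lower. Of all features 30.1%, 30.4% and 31.2% were higher there, and 28.6%, 26.5% and 26.8% lower. At 624 hours 17 targets were higher and 7 lower, against 7.17% and 6.67% of all features. At 1368 hours 18 were higher and 4 lower, against 8.74% and 8.41%. CDKN1A, which halts the cell cycle, averaged 8.90 at RAF 96 hours and 9.30 at RAF T0, and fell by 0.40 (SE 0.04, limma adjusted p 0.000595). It was higher at replicative 792 hours than at T0 by 0.90 (SE 0.05, adjusted p 2.41e-08), and its 0.10 at 2112 hours did not pass (adjusted p 0.364). At RAF 96 hours the largest differences were in RRM2B, a ribonucleotide reductase subunit (-0.95, SE 0.05), CYFIP2 (-0.80), the desmosome protein PERP (-0.65) and the decoy TRAIL receptor TNFRSF10D (-0.60). At replicative 792 hours TNFRSF10D was higher than at T0 by 2.05 (SE 0.07), the kinase PLK3 by 1.55 and RRM2B by 1.35. TNFRSF10D (0.95) and PLK3 (0.55) were also the largest that passed at 2112 hours. TNFRSF10D, like GDF15, was lower than at T0 at 144 hours, by 2.05, and at 264 hours and 432 hours, by 1.40 and 1.20.

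The higher counts of these targets in the RAF course were small, and all but the 1 at 24 hours moved with single arrays or other settings. Their lower counts at RAF 24 hours, 48 hours and 72 hours moved as well, and so did the higher count at replicative 624 hours. At 12 hours the 2 became 1 without RAF T0 replicate 1, 12 h replicate 1, or either 24 h array, and 0 without RAF T0 replicate 2. It was also 1 with the replicate number as a block. At 96 hours the 4 became 1 without RAF T0 replicate 2 or 96 h replicate 2, and 2 without either 12 h array or 96 h replicate 1. It was also 2 after quantile normalization. The 4 lower at replicative 1008 hours became 2 without 1008 h replicate 1, and the 3 lower at 2112 hours became 0 without any 1 of the 4 arrays compared. Of 17 measured regulators of p53, 4 were higher and 0 lower at RAF 96 hours, where 7.97% of all features were higher and 7.71% lower. At replicative 792 hours 5 of these regulators were higher and 2 lower, where 13.1% of all features were higher and 11.7% lower. The largest at 792 hours were the checkpoint kinase CHEK1, lower by 0.80 (SE 0.08), and the DNA damage kinase ATM, higher by 0.65 (SE 0.07).

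GDF15 and SESN2 are also raised by ATF4, the factor of the amino acid and unfolded protein stress response, so its targets were counted too. At replicative 792 hours, where GDF15 was highest, 5 of 15 measured were higher and 9 lower than at T0, with a median of -0.30. Of all features 13.1% were higher and 11.7% lower there. The serine synthesis enzyme PSAT1 fell by 2.25 (SE 0.09, limma adjusted p 1.99e-09) and the asparagine synthetase ASNS fell by 1.65 (SE 0.08). At 264 hours, where GDF15 was lowest in the course, 0 were higher and 11 lower, against 30.4% and 26.5% of all features. At RAF 96 hours 6 were higher and 2 lower, against 7.97% and 7.71% of all features, with PSAT1 higher by 1.30 (SE 0.12). SESN2 did not pass at any of these 3 labels. Among the labels, the mean level of the 15 genes was highest at replicative T0, at 8.123. It was 7.743 at 792 hours and 7.357 at 264 hours, and 7.566 at RAF 96 hours against 7.423 at RAF T0. The part of ATF4 in the level of GDF15 was not tested.

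**Figure D4:**
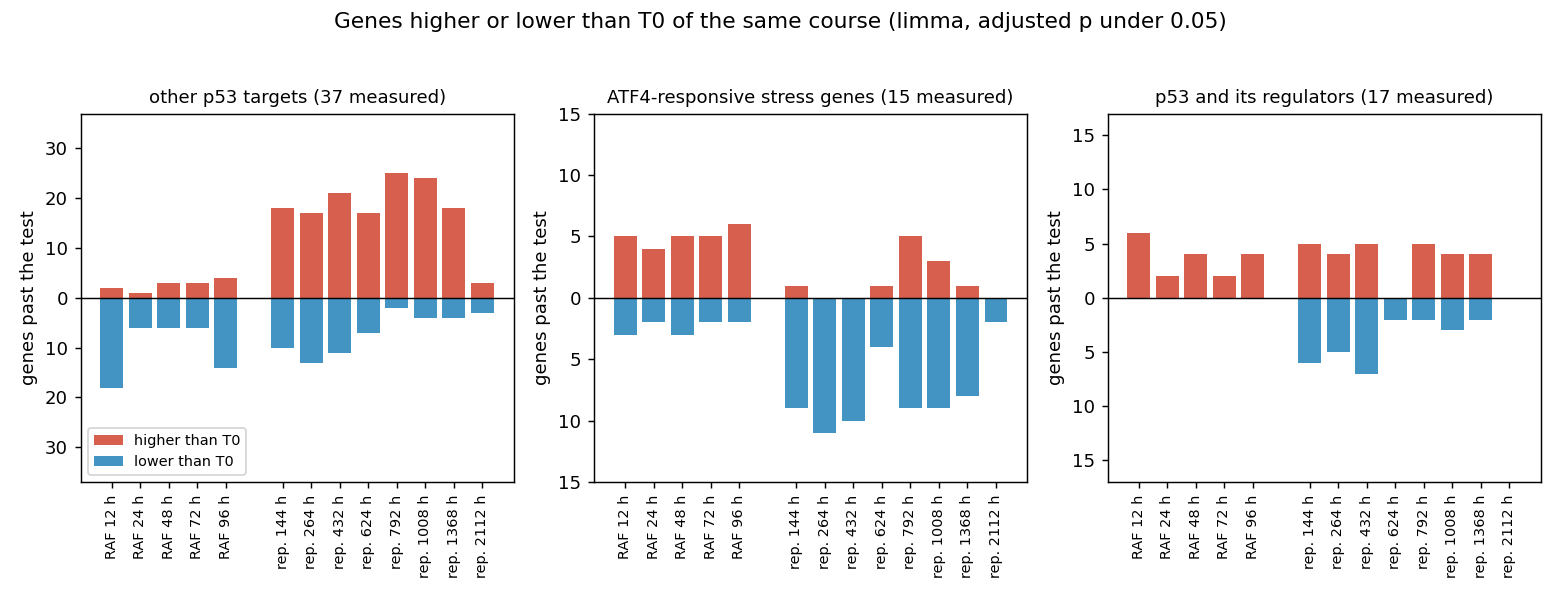
Number of genes higher (red, upwards) or lower (blue, downwards) than T0 of the same course at a limma adjusted p under 0.05, by labelled time, for other p53 targets (37 measured), ATF4-responsive genes (15) and regulators of p53 (17). At replicative 792 hours the p53 targets count 25 higher and 2 lower and the ATF4-responsive genes 5 and 9. Of all features 13.1% were higher and 11.7% lower there.

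The last labels of both courses were compared through the difference of their changes, RAF 96 hours against T0 minus replicative 2112 hours against T0, in a model of all 30 arrays. Of the 8 genes 2 passed, TP53INP1 (-0.95, SE 0.11, limma adjusted p 3.06e-06) and ZMAT3 (-0.30, SE 0.07, adjusted p 0.00621), where 6.66% of all features were lower and 7% higher. SESN1 missed the threshold (-0.40, SE 0.13, adjusted p 0.0541), as did MDM2 (-0.20, SE 0.08, adjusted p 0.125) and GDF15 (-0.10, SE 0.09, adjusted p 0.579). Among the other p53 targets 1 was higher and 13 were lower. TNFRSF10D (-1.55, SE 0.11), RRM2B (-1.0), CYFIP2 (-0.75) and PERP (-0.70) were the largest, and CDKN1A stood at -0.50.

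The starting labels differed widely from each other. Against replicative T0, 6 of the 8 genes were higher at RAF T0 and GDF15 was lower, where 30.7% of all features were higher and 28.2% lower. TP53INP1 was higher at RAF T0 by 2.15 log2 units (SE 0.07, 4.44-fold, limma adjusted p 4.98e-14), SESN1 by 1.15, MDM2 by 0.70, FAS by 0.40, TP53I3 by 0.30 and ZMAT3 by 0.20. GDF15 was lower there by 0.90 (SE 0.07, adjusted p 1.79e-09), and the -0.10 of SESN2 did not pass. MKI67 averaged 5.15 at RAF T0 and 9.30 at replicative T0, and these groups lie on opposite sides of component 1.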

How the data were processed

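Total RNA of WI-38 cells was measured on 30 arrays, placed in 15 groups of 2 by their labels alone. The authors' deposited values were read as log2 intensities, from their range of -1.6 to 14; the log base, any background correction and the normalization were not given in the sources used here. Each array's median is 5.5 and values are rounded to 0.1, so small differences are coarse and ties are common. The probe table gives 21055 features exactly 1 gene symbol, 1406 several and 29868 none. Precision is limited by the number of arrays. The 2 arrays of a group correlated over features at r between 0.9921 and 0.9969.

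Differences were tested two-sided with limma 3.58.1 (lmFit and eBayes) in R 4.3.3 with data.table (version 1.17.8), with Benjamini-Hochberg adjustment over all 52329 features and a threshold of 0.05. Folds take the values as log2. RAF comparisons used the 12 RAF arrays (6 residual degrees of freedom), replicative ones the 18 replicative arrays (9), and comparisons across courses all 30 (15). The procedure was tested on simulated data.

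The members and gene lists were chosen with earlier results of these data known. All members are named. The 3 features most correlated with each member (mean of at least 4) are named too, as are CDKN1A and up to 4 other p53 targets with the largest differences at the last labels and in the difference of both; other lists have at most 2 named genes. TNFRSF10D, PLK3 and RRM2B at labels other than the last were picked out after their values were seen. Promoter windows come from RefSeq (GRCh38.p14), and 18 windows of 9 listed genes were used. Alternatives were single omitted arrays, a replicate block, a model of all arrays, quantile normalization, a filter on dim features, eBayes with a trend, and, chosen after seeing the data, a replicative model without the 144 h, 264 h and 432 h arrays.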

Additional observations from a re-analysis of the deposited data

Results flagged for a closer look

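TP53INP1 and ZMAT3 were picked out because their change from T0 differed between the courses by limma's test of the difference itself. TP53INP1 changed by -0.95 log2 units at RAF 96 h and by 0.00 at replicative 2112 h, a difference of -0.95 (SE 0.11, limma adjusted p 3.06e-06). It was lower than T0 on both RAF 96 h arrays and equal to T0 on both 2112 h arrays. ZMAT3 changed by -0.20 at RAF 96 h and by 0.10 at replicative 2112 h, a difference of -0.30 (SE 0.07, limma adjusted p 0.00621). MKI67 was higher than at T0 at RAF 96 h, 8.55 against 5.15, and lower at replicative 2112 h, 8.80 against 9.30, and its part in these differences was not tested. With 2 arrays a group, single outlying arrays were not tested for.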

How the results depend on the processing

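No difference that passed the test changed its sign under any alternative run; differences near 0 that did not pass, such as those of SESN2 at replicative 144 h and 264 h and of SESN1 at RAF 24 h, did. The counts of genes past the test that moved by over 1.5 times were all in the RAF course, apart from single omissions. With a model of all 30 arrays 2 of the 8 genes passed at RAF 24 h, 2 at 48 h and 2 at 72 h, against 0, 0 and 1 in the main analysis. With eBayes using a trend, 1 passed at 24 h, 1 at 48 h and 2 at 72 h, and with features of a mean of at least 4, 1 at 24 h. The cause was not tested. Replicate numbers did not pair the arrays in all groups: deviations of same-numbered arrays correlated between -0.277 and 0.358, above 0.1 in 18 of 105 pairs of groups. With the number as a block, the replicate block left 214 of 216 gene values on the same side of the threshold and 2 no longer passed: ZMAT3 at RAF 96 h and SESN1 at RAF 24 h against 12 h (limma adjusted p 0.0504). The RAF 96 h count was then 4, with ZMAT3 at a limma adjusted p of 0.0638, and ZMAT3 was at 0.0501 after quantile normalization.

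When each array was left out in turn, so that 1 arm held a lone array assumed to vary like the other groups, the count of genes past the test ranged from 3 to 6 at RAF 12 h, 0 to 0 at 24 h, 0 to 1 at 48 h, 0 to 1 at 72 h and 1 to 5 at 96 h. It ranged from 3 to 5 at replicative 624 h, 3 to 5 at 1368 h and 0 to 1 at 2112 h. It stayed within 6 to 7 at 144 h, 264 h and 432 h and at 6 at 792 h and 1008 h. The difference between the courses held 2 to 3 genes, 2112 h against 144 h 6 to 7, and RAF T0 against replicative T0 7. Of 3648 gene values under these omissions, 96 no longer passed and 16 newly passed. Without the 144 h, 264 h and 432 h arrays all 40 gene values kept their side of the threshold. The alternative of a second feature per gene gave no value, since 0 of the genes had one. Signal over background could not be assessed.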

Other observations

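Relatives of the p53-responsive genes outside the list also moved between replicative 792 h and T0. Of 6 measured relatives of the sestrins, BTG2 and TP53INP1, 3 were higher and 2 lower, where 13.1% of all features were higher and 11.7% lower. The antiproliferative gene BTG1 was higher by 1.15 log2 units (SE 0.04, limma adjusted p 1.12e-09) and its relative TOB1 by 0.65 (SE 0.08). At RAF 96 h 0 of the 6 were higher and 2 lower, against 7.97% and 7.71% of all features. Of 7 measured genes of the Fas death receptor pathway, 4 were higher and 1 lower at 792 h. The ligand FASLG was higher by 0.60 (SE 0.11) and FAF1, a Fas-associated factor, lower by 0.60 (SE 0.06). At 264 h, where FAS itself was higher than at T0, 1 of these 7 was higher and 4 lower, against 30.4% and 26.5% of all features.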
